A study of Rattus norvegicus with 6 samples.

Results

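The adipocyte and lipogenesis genes described here are Cfd, Fabp4, Adrb3, Cidea and G0s2, which are known from fat cells, and Scd, Fasn, Me1, Dgat2 and Thrsp, which make fatty acids and triglycerides or accompany their synthesis. They were taken by symbol: every probe set annotated with 1 of these symbols alone was used. This gave 14 probe sets for 10 genes, of 10411 genes named on the array.

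The ipsilateral group was the tibialis anterior of 3 male Wistar rats, aged 8 weeks, whose peroneal nerve had been cut, its end sutured to the biceps femoris, and its stumps joined again 4 weeks later. The animals then survived for 8 weeks. All were operated on under ketamine and xylazine. The contralateral group was the tibialis anterior of the other leg of the same 3 animals, which carry the numbers 4, 5 and 6. The titles mark it with an abbreviation that was read as contralateral. Total RNA of each muscle was measured on 1 array, giving 3 arrays per group, and the number of arrays limits the precision. The contralateral leg belongs to an operated animal, and muscles of unoperated animals were not analysed here.

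White fat cells store triglyceride in a large lipid droplet, release fatty acids when catecholamines act on their adrenergic receptors, and secrete proteins into the blood. Lipogenesis builds fatty acids in the cytosol from acetyl-CoA, with NADPH as the reductant, and esterifies them to glycerol. Muscle holds few fat cells, which lie between its fibres and fascicles, and muscle fibres themselves store triglyceride in small droplets. In bulk RNA, fewer cells of a type and less RNA per cell cannot be told apart.

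None of the 10 genes passed the test. In limma's paired fit, 0 of the 13 tested member probe sets had a Benjamini-Hochberg adjusted p under 0.05, against 0% of all 9519 tested probe sets, and the lowest adjusted p of a member was 0.333 (Cfd). At an unadjusted p under 0.05, 6 were higher and 2 were lower in the ipsilateral muscle, where 3.57% and 2.78% of all tested probe sets met these conditions. The ipsilateral values were above every contralateral value for 6 of the 13 and below every one for 1, against 4.74% and 5.78% of all tested probe sets. They were higher within all 3 animals for 7 and lower within all 3 for 2, against 12.3% and 15.1%. The genes were chosen with earlier results of these data known, so these shares are descriptions.

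The median intensity of the 6 arrays ran from 60.2 to 66.6, and the mean without the extremes was about 150 on each. A sign of RNA quality is the intensity of the 3' actin probe set divided by that of the middle one. This actin ratio was 2.87 in the ipsilateral array of animal 6 and 2.77 in the contralateral array of animal 4. The other 4 arrays lay between 1.36 and 1.68. Markers of muscle fibres were bright on every array, with a summed intensity of 8 genes of 33111 to 40160 in ipsilateral and 36639 to 43792 in contralateral muscles. A difference is the log2 value of the ipsilateral minus that of the contralateral muscle, with 15.8 added to each intensity first. This makes differences of dim genes smaller than they are on the linear scale. The standard error (SE) is limma's, from 3 pairs. Intensities of different probe sets depend on their probes and are not compared with each other, so adipocyte and lipogenesis genes are set apart by their paired differences and not by level.

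**Figure D1:**
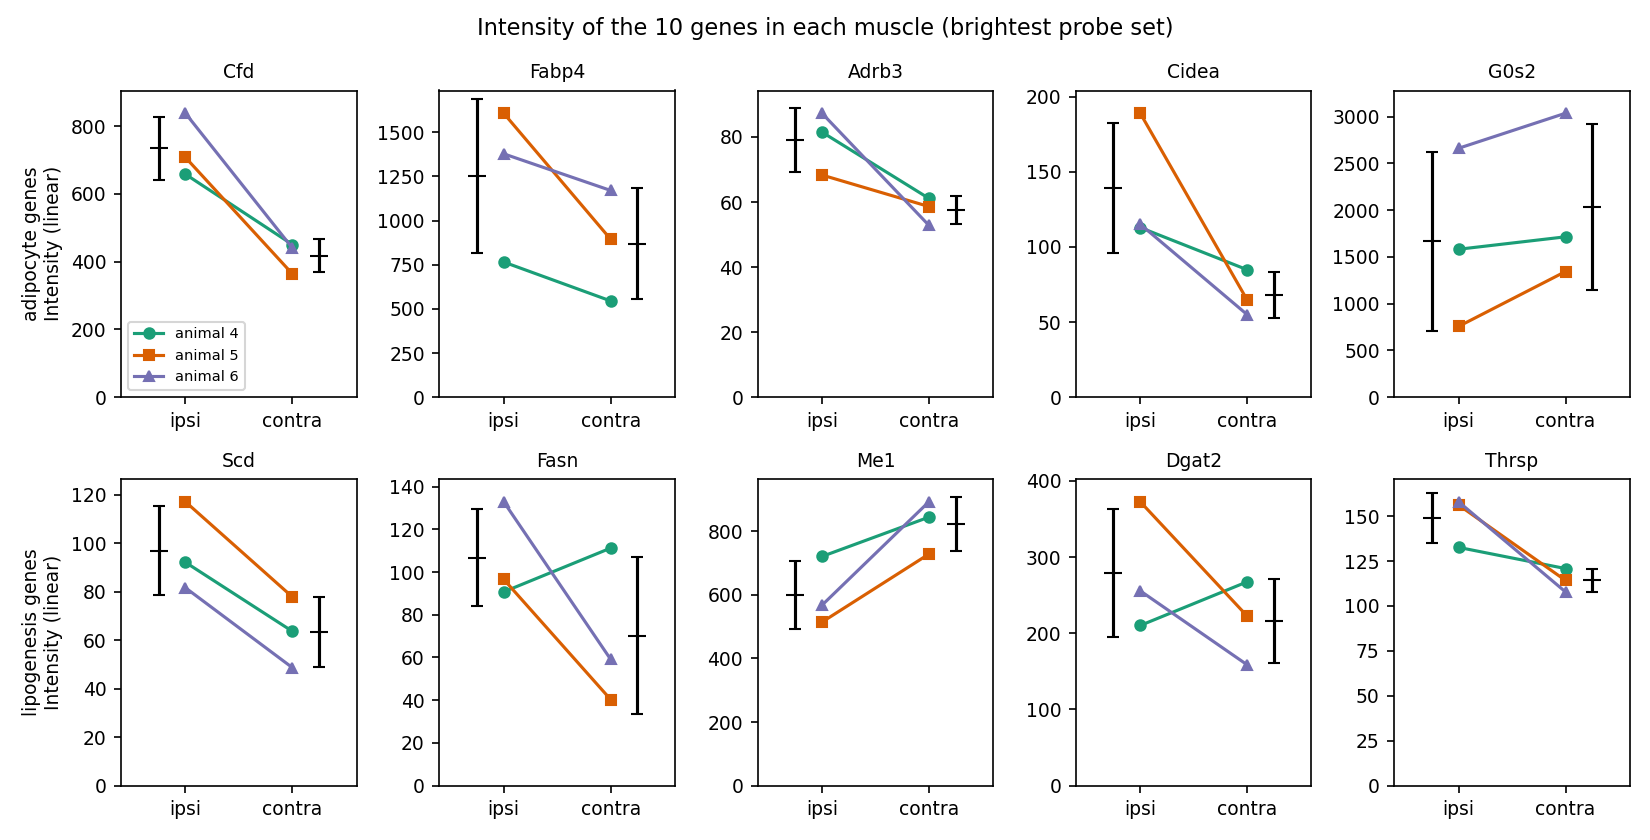
Intensity (linear, from 0) of the brightest probe set of each gene, with 1 line per animal from its ipsilateral (left) to its contralateral muscle and the mean and SD of 3 muscles beside each group. All lines slope down for Cfd, Fabp4, Adrb3, Cidea, Scd and Thrsp, all slope up for G0s2 and Me1, and animal 4 runs against the other two for Fasn and Dgat2.

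The sequences before the start of a gene are shown for the 6 genes that have one in the promoter table used here. In each of these genes the brightest probe set had the same sign in all 3 animals, 4 of them higher and 2 lower in the ipsilateral muscle. Each is the 150 bases before the annotated start, 5′ to 3′ on the gene's strand, from RefSeq on rat assembly GRCr8. Capitals mark matches to 5 motifs, each searched on both strands. The CCAAT box was searched by those letters, and the GC box as GGGCGG. For the TATA box the letters were TATAAA. The palindromic E-box was written as CACGTG. For the nuclear receptor half-site they were AGGTCA. The first 4 are Cfd at chr7:10465497-10465646 (minus strand), Cidea at chr18:63164667-63164816 (plus strand), Scd at chr1:253231732-253231881 (minus strand) and Thrsp at chr1:161138965-161139114 (minus strand), all with higher ipsilateral values.
Cfd: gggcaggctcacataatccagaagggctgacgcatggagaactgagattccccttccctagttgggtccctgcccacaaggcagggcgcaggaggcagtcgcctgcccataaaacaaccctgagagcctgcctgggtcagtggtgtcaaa
Cidea: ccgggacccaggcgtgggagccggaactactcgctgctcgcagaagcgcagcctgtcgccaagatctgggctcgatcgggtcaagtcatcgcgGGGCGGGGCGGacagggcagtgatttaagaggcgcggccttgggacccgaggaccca
Scd: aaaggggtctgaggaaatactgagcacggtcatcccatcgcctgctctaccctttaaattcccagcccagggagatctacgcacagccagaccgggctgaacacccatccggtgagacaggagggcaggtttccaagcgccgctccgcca
Thrsp: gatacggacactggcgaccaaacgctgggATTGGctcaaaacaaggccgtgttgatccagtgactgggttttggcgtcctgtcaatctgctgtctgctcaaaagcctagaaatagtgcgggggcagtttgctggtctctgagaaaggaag

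The remaining pair, with lower ipsilateral values, is G0s2 at chr13:107335949-107336098 (minus strand) and Me1 at chr8:96540245-96540394 (minus strand).
G0s2: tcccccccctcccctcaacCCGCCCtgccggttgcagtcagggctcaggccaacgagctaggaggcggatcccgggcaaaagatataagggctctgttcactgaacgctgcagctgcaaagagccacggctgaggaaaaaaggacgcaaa
Me1: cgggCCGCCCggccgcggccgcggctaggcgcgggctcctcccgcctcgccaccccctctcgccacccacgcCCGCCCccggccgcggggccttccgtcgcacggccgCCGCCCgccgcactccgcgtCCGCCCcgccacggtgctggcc

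Me1 held 4 GC boxes, Cidea 2 that overlap by a base, and G0s2 1, while 26% of the 33469 promoter windows of this length held at least 1. Thrsp held 1 CCAAT box (23.5% of all windows), and Cfd and Scd held none of the 5 motifs. G and C made up 86.7% of the Me1 window, 68% of that of Cidea, 60.7% of that of G0s2, 59.3% of those of Cfd and Scd and 52.7% of that of Thrsp, against a median of 52.7% over all windows. A match is a run of letters and not a site shown to be bound. Fabp4, Adrb3, Fasn and Dgat2 were not in the table.

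Of the adipocyte genes, 4 of 5 had higher ipsilateral intensities in all 3 animals and 1, G0s2, had lower ones in all 3. Of the 7117 genes tested, 864 were higher and 1125 lower in all 3. The median log2 difference of the adipocyte genes was 0.52, against -0.02 over all tested probe sets. By animal it was 0.36 (animal 4), 0.84 (animal 5) and 0.59 (animal 6).

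Cfd encodes adipsin, the complement protease factor D that fat cells secrete. Its intensity was 658, 708 and 838 in the ipsilateral muscles of animals 4, 5 and 6, against 451, 364 and 440 in their contralateral muscles. The groups did not overlap. This gave a log2 difference of 0.79 (SE 0.16, limma adjusted p = 0.333), and within animals 4, 5 and 6 it was 0.53, 0.93 and 0.91.

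Cidea encodes a protein of the lipid droplet surface that promotes droplet growth and is abundant in brown fat of rodents. It had intensities of 113, 189 and 115 in the ipsilateral muscles, against 84.8, 64.6 and 54.9 in the contralateral muscles. Here too every ipsilateral value exceeded every contralateral one, and the highest stood apart in animal 5. At 0.86 (SE 0.20, limma adjusted p = 0.385), its log2 difference was the largest of the 14 probe sets. Within animals 4, 5 and 6 it was 0.36, 1.35 and 0.89.

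Fabp4 encodes the fatty acid binding protein of fat cells, which capillary endothelium also makes. It was at 765, 1608 and 1378 in the ipsilateral muscles, against 545, 894 and 1170 in the contralateral muscles. The groups overlapped, and both legs of animal 4 had the lowest values. The log2 difference was 0.52 (SE 0.16, limma adjusted p = 0.559), and within animals 4, 5 and 6 it was 0.48, 0.84 and 0.23. In an unpaired fit without the 2 arrays of high actin ratio it was 0.12. That fit set the ipsilateral muscles of animals 4 and 5 against the contralateral ones of animals 5 and 6. Endothelial markers are given beside Fabp4. The summed intensity of the 4 endothelial genes on the array, of 6 listed, was 595, 810 and 568 in the ipsilateral muscles, against 540, 570 and 463 in the contralateral muscles. These sums were higher on the ipsilateral side in each animal but overlapped between the groups, and 0 of the 4 genes passed the adjusted threshold. Singly, 2 of the 4 were higher and 0 lower in all 3 animals, and 1 was higher without overlap. Of the 7117 genes tested, 864, 1125 and 342 met these conditions. The part of endothelial cells in the Fabp4 values was not tested.

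Adrb3 encodes the beta-3 adrenergic receptor, through which noradrenaline sets off lipolysis in rodent fat. It was dim, at 81.5, 68.3 and 87.3 in the ipsilateral muscles, against 61.1, 58.6 and 52.8 in the contralateral muscles. The groups did not overlap, although the ipsilateral muscle of animal 5 lay close to the contralateral ones. The log2 difference was 0.37 (SE 0.16, 95% interval 0.00086 to 0.74 before adjustment, limma adjusted p = 0.776).

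G0s2 encodes a small inhibitor of the triglyceride lipase Pnpla2 that is found in fat, liver and muscle. Its intensity was 1582, 756 and 2661 in the ipsilateral muscles, against 1715, 1344 and 3037 in the contralateral muscles. Both legs of animal 6 were high and both legs of animal 5 low, so the groups overlapped widely, with the ipsilateral muscle lower in each animal. Its log2 difference was -0.37 (SE 0.16, limma adjusted p = 0.774), and within animals 4, 5 and 6 it was -0.12, -0.82 and -0.19. Among the adipocyte genes it was therefore the 1 whose sign was opposite.

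Among the lipogenesis genes, the brightest probe set was higher in all 3 animals for 2 of 5 (Scd and Thrsp), lower in all 3 for 1 (Me1), and mixed for Fasn and Dgat2. Over the 7117 genes tested, 864 were higher and 1125 lower in all 3. The median log2 difference of the lipogenesis genes was 0.34, and by animal it was -0.22, 0.51 and 0.60 in animals 4, 5 and 6. With the brightest probe set of each gene, the median of animal 4 was thus below 0 for the lipogenesis genes. Its median for the adipocyte genes was above 0, and in animals 5 and 6 both medians were above 0. Over all 8 tested probe sets of the lipogenesis genes, the medians were 0.05, 0.23 and 0.39 in animals 4, 5 and 6. The sign in animal 4 therefore depended on the probe sets used. The differences of single genes overlapped between the sets, from -0.37 to 0.86 for adipocyte and from -0.45 to 0.58 for lipogenesis genes. Whether the medians of the sets differ was not tested.

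**Figure D2:**
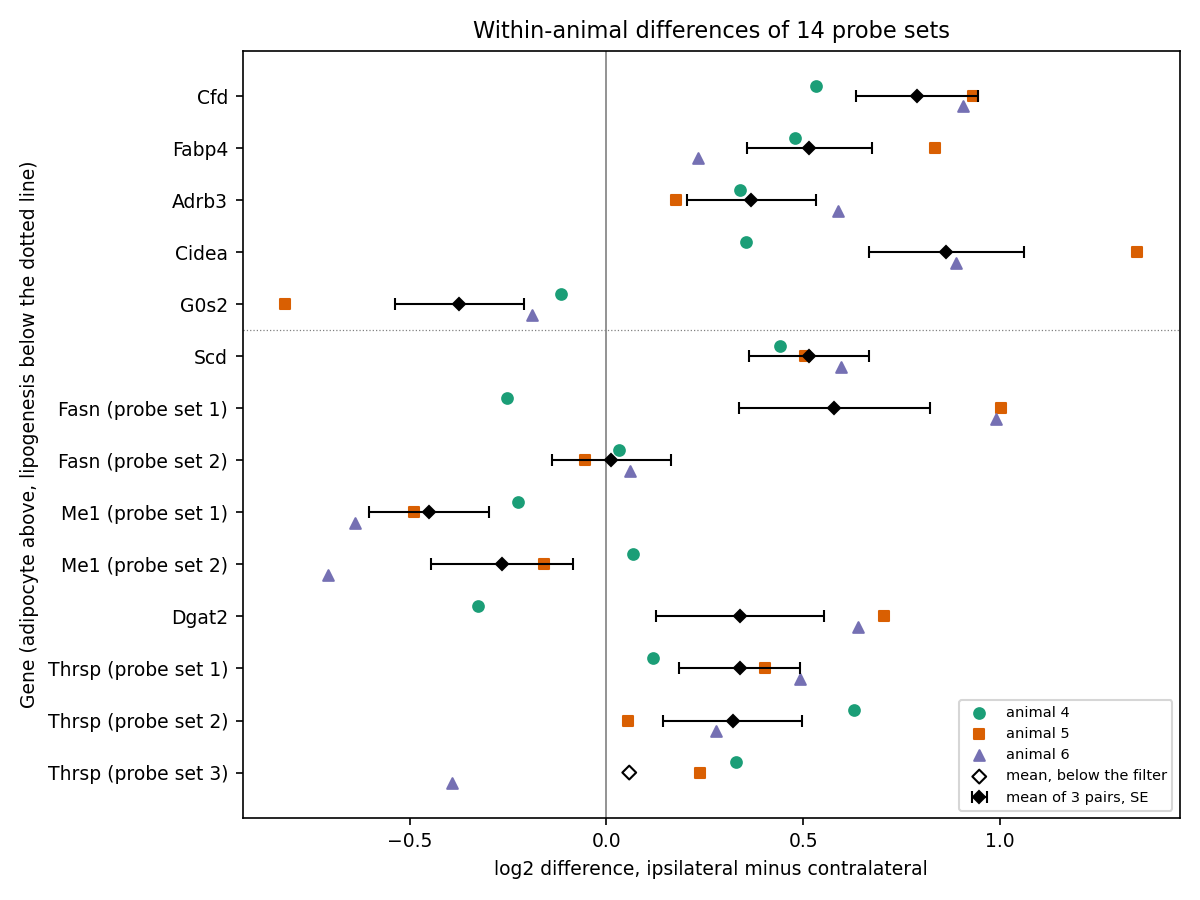
Log2 difference, ipsilateral minus contralateral, of each probe set in each animal (coloured symbols) with the mean of 3 pairs and limma's SE (black diamonds; the open diamond is a Thrsp probe set below the filter, with no test). Where a gene has several probe sets, 1 is the brightest. Animal 4 lies below 0 for the brightest Fasn probe set and for Dgat2, while animals 5 and 6 lie above 0.

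Scd encodes stearoyl-CoA desaturase, which puts the double bond into saturated fatty acids. Its intensity was 92.2, 117 and 81.7 in the ipsilateral muscles, against 63.7, 77.9 and 48.7 in the contralateral muscles. Every ipsilateral value was above every contralateral one, and the animals kept their order in both legs. The muscles differed by 0.51 on the log2 scale (SE 0.15, limma adjusted p = 0.545), or 0.44, 0.51 and 0.60 within animals 4, 5 and 6. Among the brightest probe sets of the lipogenesis genes this was the difference most alike in the 3 animals.

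Scd2, a close relative of Scd with the same activity, is no member, and was looked at after its values were seen because such paralogs can share signal on an array. Its brightest probe set had 163, 302 and 227 in the ipsilateral muscles, against 144, 116 and 144 in the contralateral muscles. The groups did not overlap, and the log2 difference was 0.68 (SE 0.21, limma adjusted p = 0.559). The next probe set gave 0.42 (SE 0.18), and the dimmest, below the filter on dim probe sets, had 8.8, 13.2 and 27.3 in ipsilateral and 13.5, 12.7 and 21.3 in contralateral muscles. How far the Scd and Scd2 probe sets share signal was not tested.

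Fasn encodes fatty acid synthase, which builds palmitate, and its pair of probe sets gave different results. The brighter had 90.7, 96.6 and 133 in the ipsilateral muscles, against 111, 40.3 and 59.1 in the contralateral muscles. The contralateral muscle of animal 4, whose array has a high actin ratio, stood above the other contralateral muscles and above 2 ipsilateral ones. The highest value, 133 in the ipsilateral muscle of animal 6, came from the other array with a high actin ratio. This probe set had a log2 difference of 0.58 (SE 0.24, limma adjusted p = 0.77). Within animals 4, 5 and 6 it was -0.25, 1.003 and 0.99. The other Fasn probe set had 79.2, 81.7 and 83.7 in ipsilateral and 77.2, 85.4 and 79.6 in contralateral muscles. Its log2 difference was 0.01, with a 95% interval of -0.33 to 0.35. No single direction can be given for Fasn.

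Me1 encodes the cytosolic malic enzyme, a source of NADPH for lipogenesis that many tissues express. The brighter probe set had 721, 514 and 567 in the ipsilateral muscles, against 844, 728 and 893 in the contralateral muscles. All ipsilateral values lay below all contralateral ones, the only probe set of the 13 tested for which this held. Its log2 difference was -0.45 (SE 0.15, limma adjusted p = 0.641), with -0.22, -0.49 and -0.64 in animals 4, 5 and 6. Its dimmer probe set had 299, 253 and 209 in ipsilateral and 285, 284 and 352 in contralateral muscles, a log2 difference of -0.27 (SE 0.18), and 0.07, -0.16 and -0.71 within animals 4, 5 and 6. Without animal 6 it was -0.045. The direction was thus the same in both probe sets for animals 5 and 6 alone.

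Dgat2 encodes diacylglycerol acyltransferase 2, which attaches the last fatty acid to make triglyceride. Its intensity was 210, 373 and 256 in the ipsilateral muscles, against 268, 223 and 159 in the contralateral muscles. Animal 4 was lower ipsilaterally, and the others were higher. On average the log2 difference was 0.34 (SE 0.21, limma adjusted p = 0.812), and within animals 4, 5 and 6 it was -0.33, 0.71 and 0.64.

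Thrsp encodes Spot 14, a thyroid hormone-responsive protein of lipogenic tissues. Its brightest probe set had 133, 156 and 158 in the ipsilateral muscles, against 121, 114 and 108 in the contralateral muscles. Each ipsilateral value was above each contralateral one, although by little in animal 4. The log2 difference was 0.34 (SE 0.15, limma adjusted p = 0.776), with 0.12, 0.40 and 0.49 in animals 4, 5 and 6. A second probe set, at 86.8, 51.2 and 64.5 in ipsilateral and 50.5, 48.7 and 50.4 in contralateral muscles, also did not overlap. The groups were barely apart, at 51.2 against 50.5, and the log2 difference within animal 5 was 0.05. At this second probe set the largest value was in animal 4, and the log2 difference was 0.32 (SE 0.18), or 0.17 without animal 4. Its dimmest probe set lay below the filter and was not tested, with 39.6, 34.4 and 26.8 in ipsilateral and 28.3, 26.8 and 40.1 in contralateral muscles. The probe sets of Thrsp thus placed the largest difference in different animals.

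**Figure D3:**
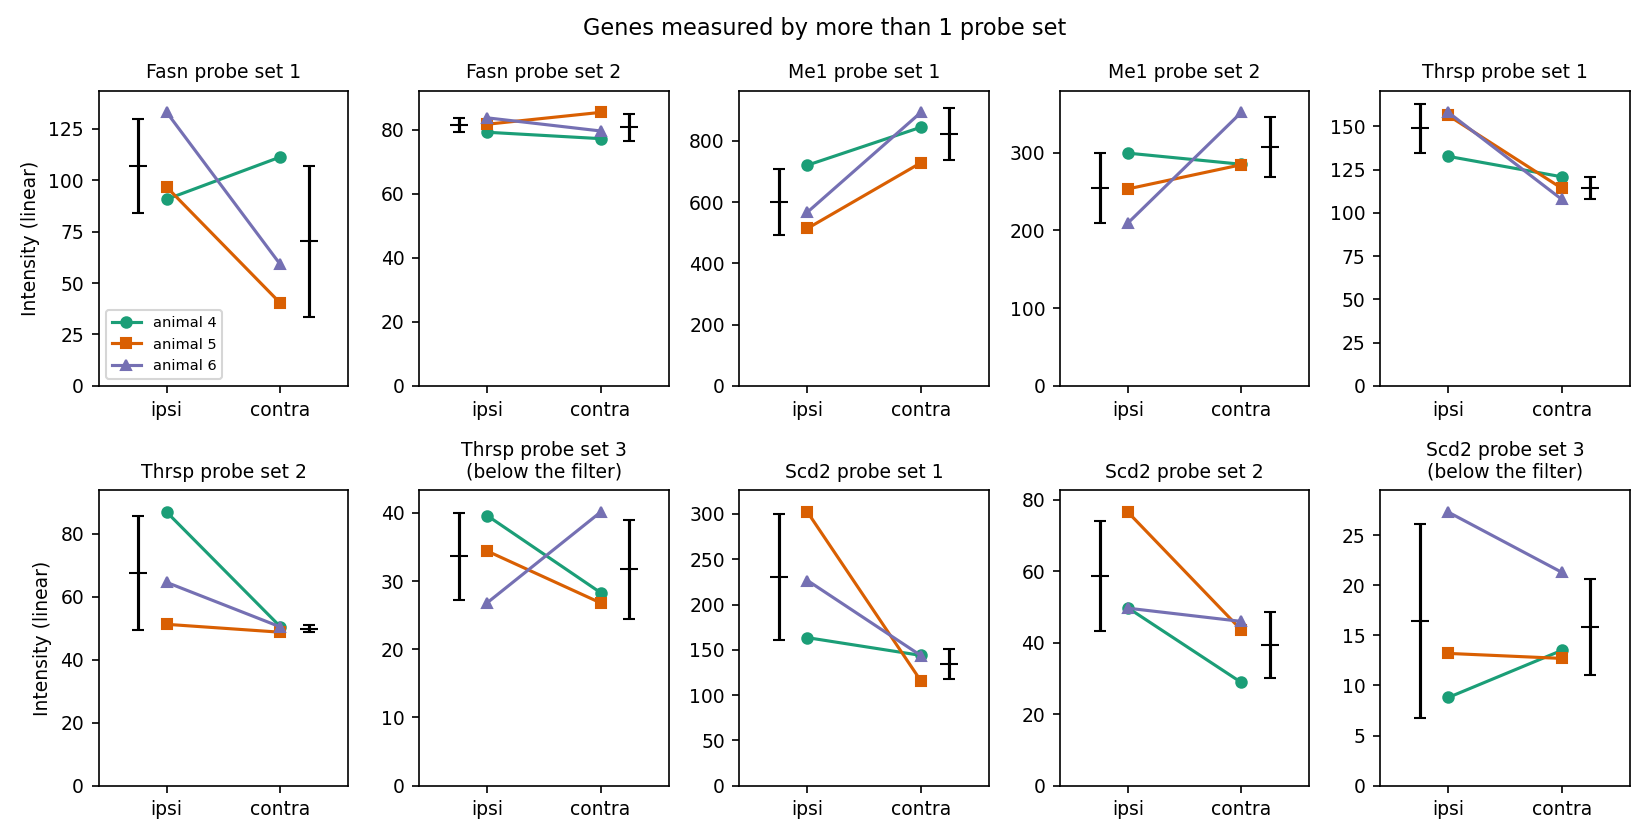
Intensity (linear, from 0) of every probe set of Fasn, Me1, Thrsp and Scd2, with 1 line per animal from its ipsilateral (left) to its contralateral muscle and the mean and SD of 3 muscles beside each group. The brightest Fasn probe set is spread from 40.3 to 133, whereas the other stays between 77.2 and 85.4.

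Whether any of these differences was called depended on animal 4. Without it, 3 member probe sets had a limma adjusted p under 0.05, all higher in the ipsilateral muscle, namely Cfd (0.92, SE 0.15, adjusted p = 0.00968), Cidea (1.12, SE 0.19, adjusted p = 0.0126) and the brighter probe set of Fasn (0.996, SE 0.19, adjusted p = 0.0209). The other probe set of Fasn gave 0.003 (SE 0.19, limma adjusted p = 0.997) without animal 4. In that fit 241 of the 9519 probe sets passed (2.53%), 148 of them higher (1.55%). The fit rests on 2 pairs and 1 residual degree of freedom. Without animal 4 the median log2 difference was 0.53 for the adipocyte and 0.55 for the lipogenesis genes. Leaving out animal 5 or animal 6 gave 0 called members, and so did an unpaired fit that left out the arrays with a high actin ratio. In that last fit the median was 0.34 for the adipocyte and 0.54 for the lipogenesis genes.

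Some genes varied over the alternatives far more than others. Over all alternatives tried, the log2 difference ran from 0.72 to 0.92 for Cfd, from 0.40 to 0.62 for Scd and from -0.56 to -0.36 for the brighter probe set of Me1. It ran from 0.12 to 0.66 for Fabp4, from 0.16 to 0.67 for Dgat2, from 0.37 to 0.996 for the brighter probe set of Fasn and from -0.88 to -0.15 for G0s2. The 0.12 of Fabp4 and the -0.88 of G0s2 came from the unpaired fit, which sets different animals against each other. The dimmer probe set of Me1 ran from -0.43 to -0.045 and the next brightest of Thrsp from 0.17 to 0.45. The range was 0.62 to 1.12 for Cidea, 0.26 to 0.46 for Adrb3 and 0.26 to 0.45 for the brightest probe set of Thrsp. All of these kept their sign, unlike the flat probe set of Fasn (-0.030 to 0.046).

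For the remaining genes of fat cells the median difference was close to 0. Of 15 such genes listed, 11 had a probe set of their own and 5 were bright enough to be tested. Among these 5, all 3 animals were higher ipsilaterally in 0 and lower in 1, against 864 and 1125 of the 7117 genes tested. Of the 5, 0 had an unadjusted p under 0.05, and their median log2 difference was 0.04. Their defining members were dim. The adipokine leptin, Lep, had 2.4, 3.5 and 2 in the ipsilateral muscles, against 3, 3.9 and 2.5 in the contralateral muscles. Plin1, which coats the lipid droplet of fat cells, had 33.3, 26.1 and 46 in ipsilateral and 25, 27.5 and 37.3 in contralateral muscles. Both lay below the filter, an intensity of about 42.4, and neither showed separate groups. Pparg, the transcription factor that drives fat cell formation, had 18.7, 33.9 and 37.2 in the ipsilateral muscles, against 35.4, 43.4 and 64.8 in the contralateral muscles. It was also below the filter, and was lower ipsilaterally in each animal. Adipoq, the gene of adiponectin, has no probe set named in the annotation used here.

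Of the tested remainder, Rbp4, which encodes a retinol carrier, had a log2 difference of 0.25 (SE 0.18, limma adjusted p = 0.846). Pck1, the enzyme of glyceroneogenesis in fat, had 0.20 (SE 0.20, adjusted p = 0.88) and Plin4, a lipid droplet protein of fat and muscle, had -0.10 (SE 0.15, adjusted p = 0.928). The summed intensity of the 11 genes was 972, 1140 and 1235 in the ipsilateral muscles, against 1133, 1121 and 1214 in the contralateral muscles. These sums overlapped, and that of animal 4 was lower on the ipsilateral side. None of the 11 was listed at 0.

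The other genes of lipogenesis had a median difference slightly below 0. Of 19 listed, 18 had a probe set and 14 were tested, with a median log2 difference of -0.10. In 1 the ipsilateral value was higher in all 3 animals and in 5 it was lower in all 3, against 864 and 1125 of the 7117 genes tested. At an unadjusted p under 0.05 there were 0 higher and 1 lower, and 0 passed the adjusted threshold. Lpin1, lipin 1, which makes the diacylglycerol that Dgat2 uses, had 472, 203 and 377 in the ipsilateral muscles, against 463, 484 and 537 in the contralateral muscles. Its log2 difference was -0.55 (SE 0.22, limma adjusted p = 0.74), and 0.03, -1.20 and -0.49 within animals 4, 5 and 6. Acaca, acetyl-CoA carboxylase, which makes the building block used by Fasn, had -0.22 (SE 0.15, adjusted p = 0.839), with lower ipsilateral values in each animal, in its brighter probe set. Its dimmer one gave -0.15 (SE 0.21), with 0.30 in animal 4. Pgd, which makes NADPH in the pentose phosphate pathway, had -0.18 (SE 0.15, adjusted p = 0.861).

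**Figure D4:**
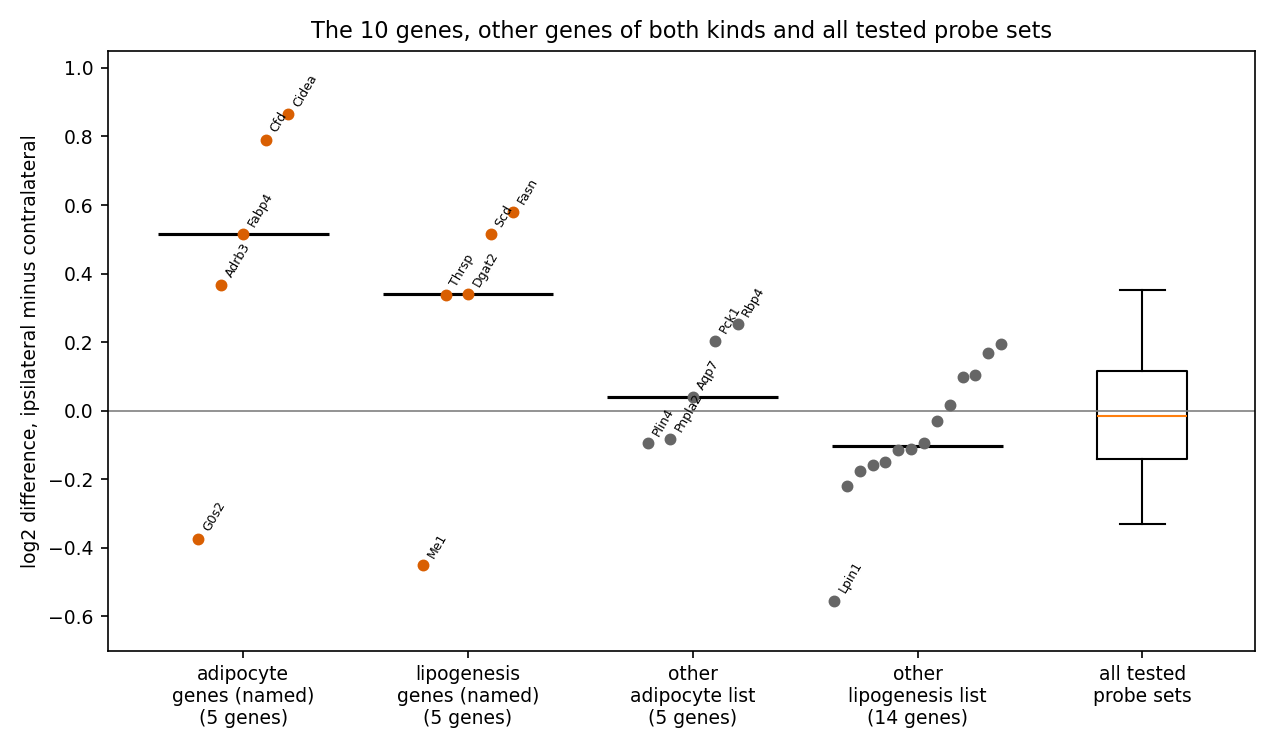
Log2 difference, ipsilateral minus contralateral, of the brightest tested probe set of each gene (points) with the median of each set (black line). The box shows the 25th to 75th percentile of all 9519 tested probe sets, with whiskers from the 5th (-0.33) to the 95th percentile (0.35). The named adipocyte and lipogenesis genes have medians of 0.52 and 0.34, and the other genes of each kind have 0.04 and -0.10.

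Marker lists of other cells held 0 genes that passed the adjusted threshold. The summed intensity of 6 macrophage genes, of 7 listed, was 3659, 2637 and 3129 in the ipsilateral muscles, against 3815, 4058 and 4035 in the contralateral muscles, without overlap. Singly, 4 of the 6 were lower in all 3 animals and 1 was lower without overlap. Of the 7117 genes tested, 1125 and 446 met these conditions. Sums of 6 fibroblast genes were 10586, 9369 and 9829 in ipsilateral and 9434, 10733 and 9924 in contralateral muscles, and they overlapped. Of the 8 muscle fibre genes, 2 were higher and 2 lower in all 3 animals, against 864 and 1125 of the 7117 genes tested. The median log2 difference of the 8 was -0.20. Myh7, the slow myosin heavy chain, had 1213, 3474 and 2444 in the ipsilateral muscles, against 872, 424 and 755 in the contralateral muscles (log2 difference 1.71, SE 0.36, limma adjusted p = 0.333). Myh4, a myosin heavy chain of fast fibres, had 2233, 1016 and 1179 in the ipsilateral muscles, against 2751, 2421 and 2752 in the contralateral muscles (log2 difference -0.92, SE 0.19, limma adjusted p = 0.333). For both genes the groups did not overlap, and the difference was smallest in animal 4. Their adjusted p was the lowest of the 8, and the rule for named genes did not cover them. The other fibre genes had log2 differences of 0.35 (Ttn), -0.10 (Mb), -0.19 (Acta1), -0.21 (Tnnt3), -0.24 (Ckm) and -0.26 (Tnni2). Of the 8, 1 was higher and 2 were lower without overlap, against 342 and 446 of the 7117 genes tested. The part of fibre type and of these cells in the values of the 10 genes was not tested.

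Genes with the pattern most like each set over the 6 arrays were found by Pearson's r with the mean of its standardized log2 values. The search covered those of the 9519 tested probe sets that have a single symbol and are no members. The 6 arrays come in pairs from 3 animals and many probe sets were searched, so a high r is a description. Cnbp (r = 0.99), Gdi2 (0.99), Chsy1 (0.98) and Cd276 (0.98) were nearest to the adipocyte genes, with log2 differences of 0.14 to 0.29. These lie between the 75th (0.12) and the 95th percentile (0.35) of all tested probe sets. Within the set, Cfd had an r of 0.98 with the mean and G0s2 one of 0.05. Each member is part of the mean of its set, which raises its r by construction, unlike that of genes outside it. Nearest to the lipogenesis genes were Cc2d2a (0.99), the embryonic myosin heavy chain Myh3 (0.98), the Z-disc gene Myoz2 (0.98) and Pbdc1 (0.98). The log2 differences of Myh3 and Myoz2 were smaller in animal 4 than in the others: 0.85, 4.65 and 4.06 for Myh3, and -0.15, 1.76 and 1.21 for Myoz2, in animals 4, 5 and 6. Me1 had an r of -0.76 with the mean of its own set.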

How the data were processed

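RNA of 6 tibialis anterior muscles was measured on 1 array each. The authors deposited 1 intensity per probe set and array, on a linear scale; the program that computed it was not given in the sources used here. The table has 15923 probe sets, 57 of them controls. Names came from an annotation of the platform that may be outdated, with a single symbol on 12783 probe sets, more than 1 on 312 and no entry for 2771. The symbols of all 14 member probe sets matched a gene table of assembly GRCr8.

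After adding 15.8 (the 20th percentile of all values) to each intensity, log2 was taken. Array medians lay within 0.117 on this scale, under a limit of 0.2, so no normalization followed. The filter on dim probe sets kept those whose mean log2 value exceeded 5.86, the 40th percentile without controls, which left 9519 to test. Both muscles of an animal were paired as a block in limma 3.58.1 under R 4.3.3 (lmFit, eBayes with intensity trend), and p-values were adjusted by Benjamini-Hochberg over these 9519. The procedure was checked on simulated data. These had no animal effect, and the check required calls only of changes larger than that of any member. It is therefore no measure of the power to call differences as small as those of the members. The residual degrees of freedom were 2 and the prior ones 7.47. With 3 pairs an exact two-sided sign test of a single value cannot go below p = 0.25. The pairing comes from the design. As a check, the correlation of the deviations of an animal's pair of muscles from their group means was -0.04 (animal 4), 0.07 (animal 5) and 0.13 (animal 6).

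The members, the lists, the rule for named genes (all members; of the other lists, the 3 genes with the smallest p each and 4 fixed markers; the 4 genes of most similar pattern) and the alternatives were chosen with earlier results of these data known. Alternatives covered the block, pseudocount, normalization, filter, variance prior and arrays left out. Plots used matplotlib 3.10.9 and Python 3.11.15.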

Additional observations from a re-analysis of the deposited data

How the results depend on the processing

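The median log2 difference ran from 0.34 to 0.66 for the adipocyte genes and from 0.26 to 0.55 for the lipogenesis genes over all alternatives tried. Each animal has both muscles, so removing the replicate block cannot change a difference, and the medians stayed at 0.52 and 0.34 by construction. In the fit without the block 0 probe sets passed, as in the paired fit. With the arrays left out by animal, the number of probe sets with an adjusted p under 0.05 ran from 0 to 241 and that of members from 0 to 3, both maxima without animal 4. The unpaired fit without the 2 arrays of high actin ratio called 1 probe set, of Myh3, and 0 members. Of 131 comparisons of a member probe set with its value under an alternative, 126 were counted as unchanged in direction and side of the threshold. Another 3 became significant, those of Cfd, Cidea and the brighter probe set of Fasn without animal 4. Fits without the block, the filter or the intensity trend keep every difference by construction, so their direction could not change. The 126 include the Thrsp probe set below the filter, which had no test in the main fit. Over the alternatives the adjusted p of Cfd ran from 0.00968 to 0.9999. The flat Fasn probe set ran from -0.012 (without animal 6) to 0.046 (without animal 5) when animals were left out. It was -0.030 in the unpaired fit without the arrays of high actin ratio, against 0.01 in all arrays, and the cause was not tested. Leaving out animal 5, the log2 difference of Fabp4 was 0.36, and in the unpaired fit without those 2 arrays it was 0.12. The unpaired fit sets different animals against each other, so the part of the arrays and that of the lost pairing cannot be told apart. Dim probe sets, Adrb3 and Scd among them, lie close to the filter, where the pseudocount shrinks differences most.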
